A study of Homo sapiens with 36 samples.

Results

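The genes described here are 38 members of the machinery that folds, checks and disposes of proteins in the endoplasmic reticulum (ER), together with the sensors of the unfolded protein response. The rule names them by gene symbol and uses no measured value, though it was set with earlier results of these data known, and all 38 were found among the 57771 genes of the table. They fall into 14 chaperones and co-chaperones, 8 disulfide isomerases and oxidases, 9 genes of ER-associated degradation, 3 genes of the translocon and COPII coat, and 4 genes for the sensors and XBP1. Of the 38, 37 passed the filter on low counts. The exception was DERL3, a derlin, with 0 to 30 counts per library (median 5.5) and 0 counts in 5 libraries.

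A secretory cell such as a hepatocyte makes its plasma proteins in the ER, where HSPA5 (BiP) and its co-chaperones hold unfolded chains, disulfide isomerases join cysteines, and chains that fail to fold are sent back to the cytosol for degradation. When unfolded chains accumulate, the membrane sensors ATF6, IRE1 (gene ERN1) and PERK (gene EIF2AK3) start the unfolded protein response. ATF6 is cut to release a transcription factor, IRE1 splices XBP1 mRNA so that it codes for an active factor, and PERK slows translation, and the first 2 of these arms raise chaperone and degradation genes through promoter elements named after ER stress.

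RNA-seq was run on 36 libraries of HepG2-IGF1R-KO cells, a line derived from the human hepatoma line HepG2 with the gene for the IGF-1 receptor knocked out in all groups. Whether the line is a single clone is not given in the sources used here. The 4 groups had 9 libraries each. The sample titles of all 4 groups carry 72 h. Cells in normal medium (DMEM with 10% serum) were left untreated or received 3 nM human insulin for 18 h. Cells in insulin-resistant medium were kept for 72 h with 1 nM human insulin, 20 mM glucose and fatty acids at 0.5 mM (oleic, linoleic and palmitic acid), and were then left untreated or received 3 nM human insulin for 18 h. Removal of the 1 nM insulin before the last step is not described in the labels, so the untreated cells of that medium may have held insulin. The comparison at the centre of the design is the response to insulin in either medium.

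Library totals ran from 26613307 to 116763907 counts. IGF1R transcript was present in every library at 77.8 to 134 CPM (counts scaled to a common library total), and a gene-level count does not show whether the transcript is disrupted. The 14 hepatocyte markers summed to 13580.4 to 41884 CPM in every library, but 14 stromal markers were also abundant in 30 libraries, at 22860 to 77658 CPM. In the other 6 libraries they summed to 100.4 to 119 CPM, with 2 to 7 of the 14 at 0, and COL1A1 was at 0.784 to 1.70 CPM against 8071 to 31870.3 in the 30. The 6 are numbers 4 to 6 of the stimulated group in normal medium and numbers 1 to 3 of the untreated group in the other medium, so results are given with all libraries and without these 6. Markers of endothelial, leukocyte and cholangiocyte cells summed to 0.915 to 4.32, 342 to 2448 and 728 to 1712 CPM. The median of the 5 leukocyte markers was 0.0709 to 5.55 CPM, with 1 or 2 of them at 0 in each library. Few of them thus carry their sum, which is no measure of leukocyte content. For 35 of the 36 libraries, the library of the same group with the highest correlation over all genes had a number in the same triplet (1 to 3, 4 to 6 or 7 to 9), though levels of single genes and classes often overlapped between triplets. The triplets were therefore also summed to 1 sample each. The labels call all 9 libraries of a group biological replicates without describing separate cultures, and p-values treat them as independent. In these bulk samples, fewer cells of a type and less RNA per cell cannot be told apart.

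Promoter sequences are shown for members whose upstream bases hold an ER stress element, because the response acts through such elements. RefSeq promoters (GRCh38.p14, 250 bases before to 50 after the start site) were matched for 34 members. None was matched for PDIA3, DERL1, DERL3 and SEC24D. The ER stress response element, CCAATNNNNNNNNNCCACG on either strand, was present in 9 of the 34 (26.5%) against 25 of all 27305 genes with a promoter (0.092%). Those 9 are HSPA5, HSP90B1, CALR, CANX, FICD, PDIA6, ERO1B, CRELD2 and XBP1. The second element, ATTGGNCCACG, was present in 3 of the 34 (8.8% against 0.07%), which are HYOU1, HERPUD1 and SDF2L1. The core of the unfolded protein response element, TGACGTG, was present in 3 (8.8% against 2.395%), which are DNAJC10, SEC61A1 and HYOU1. In HYOU1 this core overlaps one of 2 copies of the second element.

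The stretches below run 5′ to 3′ on the strand of the gene, start 10 bases before the first element and end 10 bases after the last, and have the elements in capitals. An element on the opposite strand therefore appears as its reverse complement, beginning with CGTGG. They lie at chr9:125241381-125241419 (minus strand, HSPA5), chr12:103930206-103930349 (plus, HSP90B1), chr19:12938374-12938412 (plus, CALR), chr22:49918544-49918582 (plus, CRELD2), chr22:28800593-28800631 (minus, XBP1), chr11:119057264-119057403 (minus, HYOU1), chr16:56932015-56932045 (plus, HERPUD1) and chr22:21642104-21642134 (plus, SDF2L1), all upstream of the start site.
HSPA5: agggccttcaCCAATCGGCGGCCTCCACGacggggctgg
HSP90B1: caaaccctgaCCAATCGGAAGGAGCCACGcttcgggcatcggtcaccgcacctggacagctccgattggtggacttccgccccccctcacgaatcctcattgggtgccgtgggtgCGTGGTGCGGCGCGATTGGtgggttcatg
CALR: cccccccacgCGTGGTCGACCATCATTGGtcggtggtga
CRELD2: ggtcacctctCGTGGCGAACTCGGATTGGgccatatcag
XBP1: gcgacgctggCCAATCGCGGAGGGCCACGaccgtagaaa
HYOU1: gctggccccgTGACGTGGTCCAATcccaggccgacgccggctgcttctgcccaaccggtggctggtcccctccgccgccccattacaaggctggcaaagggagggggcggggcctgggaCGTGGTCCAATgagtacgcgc
HERPUD1: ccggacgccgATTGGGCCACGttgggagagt
SDF2L1: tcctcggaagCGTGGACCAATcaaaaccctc

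HSP90B1 holds the first element on both strands, and XBP1, itself a product of the response, holds it close to its start. In HSPA5 the element ends at base -48, counted from the start site. A match is a description of letters and not of binding. The elements were chosen as those of this response, so their excess among its genes is not an independent result.

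Insulin for 18 h in normal medium was accompanied by higher transcript of nearly the whole set. Of 37 members tested, 32 were higher and 0 were lower (edgeR quasi-likelihood test, adjusted p under 0.05), where 24.9% of all 17983 genes tested were higher and 10.2% lower. The median log2 fold change was 0.90 over the members and 0.03 over all genes. Called members were 14 of 14 chaperones (median 1.33), 8 of 8 disulfide genes (0.72), 6 of 8 degradation genes (0.81), 1 of 3 translocon and COPII genes (0.20) and 3 of 4 sensor genes (0.80). Without the 6 libraries low in COL1A1, 29 of 38 were higher and 0 lower, against 15.4% and 18.1% of 18230 genes, with a median of 0.60 against -0.01. For 25 of the 37 members the lowest insulin-stimulated library lay above the highest untreated one (26 without the 6 libraries), as was true of 6.63% of all genes (7.54%).

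**Figure D1:**
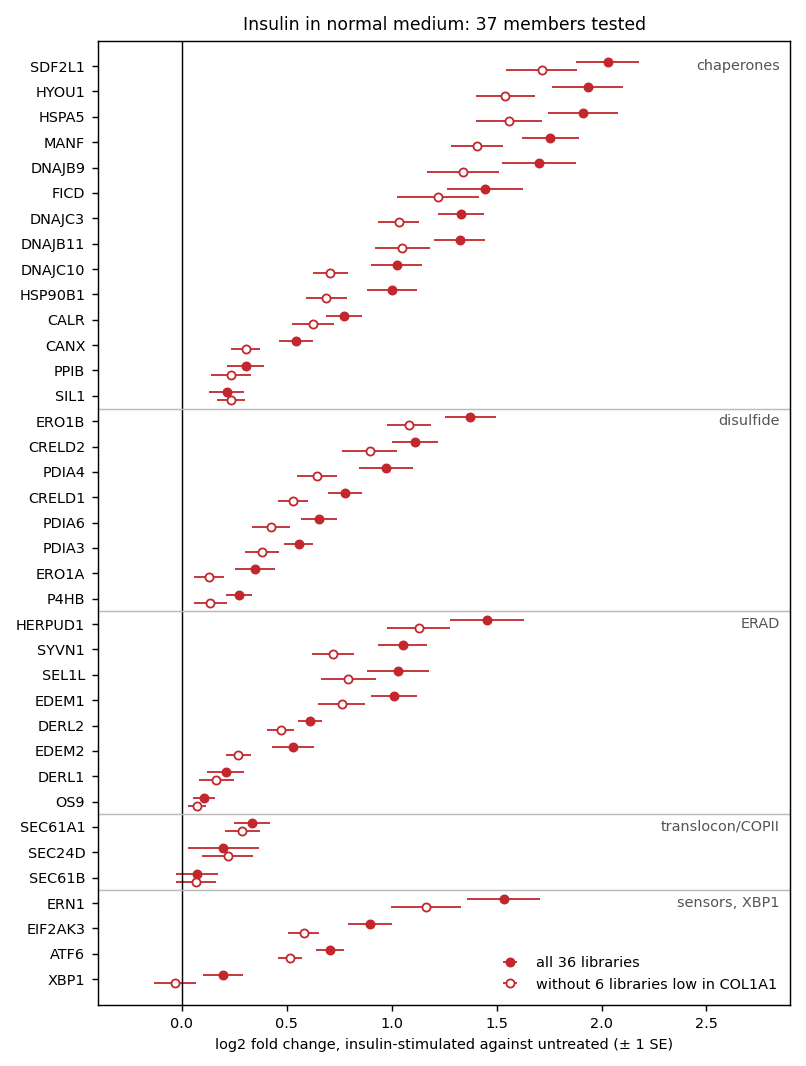
Log2 fold change of 37 members, insulin-stimulated against untreated cells in normal medium, with ± 1 standard error of the edgeR fit; filled circles use all 36 libraries and open circles leave out the 6 libraries low in COL1A1. SDF2L1, HYOU1 and HSPA5 lie farthest to the right, and most open circles lie to the left of the filled ones (median 0.60 against 0.90).

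Among the chaperones, SDF2L1, a partner of ER co-chaperones of the DnaJ family, had the largest change. Its level was 15.2 to 28.3 CPM (median 19.1) in untreated and 50.2 to 124 CPM (median 76.9) in insulin-stimulated libraries of normal medium. In insulin-resistant medium it was 21.5 to 33.1 CPM (median 25.8) untreated and 19.5 to 23.9 CPM (median 21.4) with insulin. The insulin-stimulated libraries of normal medium thus stood apart from all 3 other groups, which overlapped one another. The rise was 4.08-fold, a log2 fold change of 2.03 (SE 0.15, adjusted p = 1.58e-11), and 1.71 (SE 0.17) without the 6 libraries.

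HYOU1, the large HSP70-like chaperone that exchanges nucleotide on HSPA5, was at 231 to 295 CPM (median 279.9) in untreated and 537 to 1843 CPM (median 945) in insulin-stimulated libraries of normal medium. It was at 313 to 451 CPM (median 336) and 238 to 382 CPM (median 331) in insulin-resistant medium. The insulin-stimulated libraries of normal medium were again above all others, and the untreated libraries of the 2 media were also separate, by a smaller margin (313 against 295 CPM). The log2 fold change was 1.93 (SE 0.17, adjusted p = 1.94e-10), or 1.54 (SE 0.14) without the 6 libraries.

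HSPA5 itself was at 862 to 1361 CPM (median 1245) untreated and 2532 to 7570.3 CPM (median 4561) with insulin in normal medium. In insulin-resistant medium it was at 1041 to 1425 CPM (median 1113) untreated and 833 to 1463 CPM (median 1369.6) with insulin. The first 2 groups did not overlap and the last 2 did. The difference was 3.76-fold, a log2 fold change of 1.91 (SE 0.17, adjusted p = 2.53e-10), and 1.56 (SE 0.16) without the 6 libraries. The highest library, at 7570.3 CPM, is one of the 6, and the highest of the remaining ones was at 5634 CPM.

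The chaperones that work with HSPA5 or beside it followed in size. MANF, an HSPA5-binding factor, rose by 1.76 (SE 0.13) on the log2 scale. The DnaJ co-chaperones DNAJB9 (1.70, SE 0.18), DNAJC3 (1.33, SE 0.11), DNAJB11 (1.32, SE 0.12) and DNAJC10 (1.02, SE 0.12) rose by at least 1.02. FICD, which puts AMP on HSPA5 and takes it off, rose by 1.44 (SE 0.18), and HSP90B1, the ER form of HSP90, by 1.00 (SE 0.12). The lectin chaperones that hold glycoproteins rose less, CALR by 0.77 (SE 0.09) and CANX by 0.54 (SE 0.08), or by 0.30 (SE 0.07) without the 6 libraries. PPIB, a proline isomerase, was called at 0.30 (SE 0.09) but not without the 6 libraries (0.23, SE 0.09, adjusted p = 0.0571).

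SIL1, the other nucleotide exchange factor for HSPA5, had the smallest change in the class. It was at 33.5 to 46.1 CPM (median 40.0) untreated and 35.9 to 57.8 CPM (median 44.8) with insulin in normal medium, and at 38.1 to 55.8 (median 48.7) and 46.3 to 53.8 CPM (median 49.8) in the other medium. The 2 groups of normal medium overlapped, and of all pairs of groups 1 was separate, untreated cells of normal medium (up to 46.1 CPM) and stimulated cells of insulin-resistant medium (from 46.3 CPM). Its log2 fold change was 0.21 (SE 0.08, adjusted p = 0.0457), and 0.23 (SE 0.07, adjusted p = 0.0068) without the 6 libraries, while within the 11 April batch it was -0.04.

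**Figure D2:**
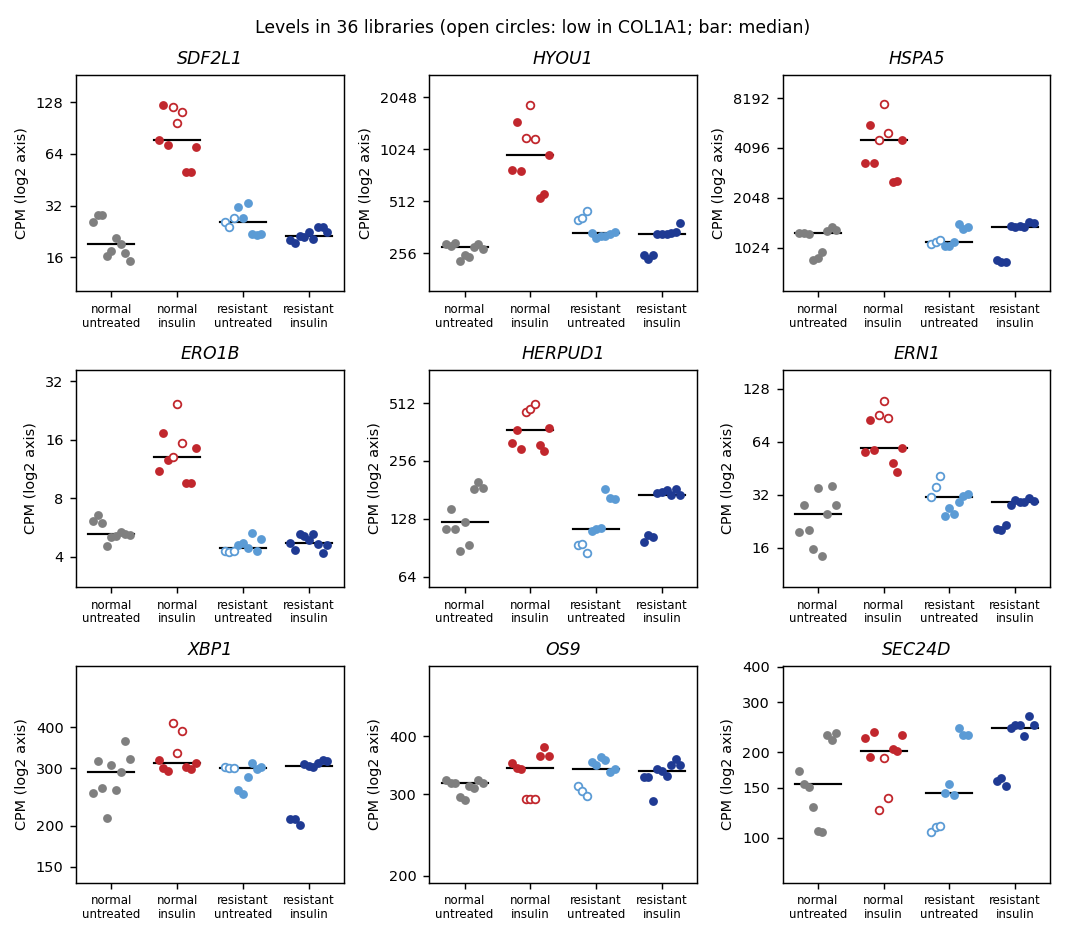
Level of 9 members in each of the 36 libraries (scaled CPM on a log2 axis, groups on the horizontal axis, replicates in order within a group); open circles are the 6 libraries low in COL1A1 and bars are group medians. For SDF2L1, HYOU1, HSPA5, ERO1B, HERPUD1 and ERN1 the insulin-stimulated libraries of normal medium lie above all untreated ones of that medium, and for XBP1, OS9 and SEC24D the groups overlap.

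Of the disulfide genes, ERO1B, an oxidase that recharges the isomerases, changed most. It was at 4.52 to 6.53 CPM (median 5.26) untreated and 9.6 to 24.3 CPM (median 13.1) with insulin in normal medium, and at 4.23 to 5.31 (median 4.45) and 4.20 to 5.27 CPM (median 4.73) in insulin-resistant medium. Its stimulated libraries of normal medium were above every other library. The log2 fold change was 1.38 (SE 0.12, adjusted p = 3.11e-10), or 1.08 (SE 0.11) without the 6 libraries.

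CRELD2, a secreted ER stress protein with isomerase activity, was at 26.2 to 42.8 CPM (median 28.0) untreated and 49.8 to 87.5 CPM (median 69.6) with insulin in normal medium. It was at 26.1 to 36.7 (median 32.1) and 27.8 to 33.2 CPM (median 29.8) in insulin-resistant medium. Stimulated cells of normal medium were above the other 3 groups, with a log2 fold change of 1.11 (SE 0.11), or 0.89 (SE 0.13) without the 6 libraries. The isomerases PDIA4 (0.97, SE 0.13), PDIA6 (0.65, SE 0.09) and PDIA3 (0.56, SE 0.07) and CRELD1 (0.78, SE 0.08) also rose in both fits, PDIA4 by 0.64 (SE 0.10) and PDIA6 by 0.42 (SE 0.09) without the 6 libraries.

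P4HB, the classical protein disulfide isomerase, had the smallest change. It was at 1235 to 1571 CPM (median 1383) untreated and 1334 to 1977 CPM (median 1719.7) with insulin in normal medium, and at 1414 to 1632 (median 1578) and 1364 to 1651 CPM (median 1522) in insulin-resistant medium. The groups overlapped, and 7 of 9 stimulated libraries were above the highest untreated one. P4HB was called at a log2 fold change of 0.27 (SE 0.06, adjusted p = 0.000543) but not without the 6 libraries (0.14, SE 0.08, adjusted p = 0.202). ERO1A, the second oxidase, went the same way, from 0.35 (SE 0.10) to 0.13 (SE 0.07, adjusted p = 0.167).

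Among the degradation genes, HERPUD1, a membrane organiser of the degradation complex, was at 87.5 to 200.006 CPM (median 122.6) untreated and 287 to 506 CPM (median 369.6) with insulin in normal medium. It was at 84.9 to 183 (median 114) and 96.5 to 183 CPM (median 170.4) in insulin-resistant medium. The first 2 groups did not overlap, and the log2 fold change was 1.45 (SE 0.18, adjusted p = 5.91e-08), or 1.13 (SE 0.15) without the 6 libraries.

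The ubiquitin ligase SYVN1 (HRD1) and its scaffold SEL1L rose as well. SYVN1 was at 54.4 to 66.7 CPM (median 58.9) untreated and 84.6 to 192 CPM (median 109) with insulin in normal medium, and at 60.1 to 70.9 (median 65.1) and 48.4 to 70.0 CPM (median 67.2) in the other medium. SEL1L was at 115 to 214 CPM (median 135) untreated and 255 to 529 CPM (median 294) with insulin in normal medium, and at 129 to 220.3 (median 145) and 144 to 229 CPM (median 203) in the other. For both genes every stimulated library of normal medium was above every untreated one. The log2 fold changes were 1.05 (SE 0.12) and 1.03 (SE 0.15), and 0.72 (SE 0.10) and 0.79 (SE 0.13) without the 6 libraries.

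EDEM1, which directs misfolded glycoproteins to degradation, rose by 1.01 (SE 0.11), its relative EDEM2 by 0.53 (SE 0.10) and the derlin DERL2 by 0.61 (SE 0.06) on the log2 scale. Without the 6 libraries EDEM2 was at 0.27 (SE 0.06), with 2 of 6 stimulated libraries above the highest untreated one, and with triplets summed it was not called (0.40, SE 0.17, adjusted p = 0.255). DERL1 (0.21, SE 0.09, adjusted p = 0.064) was not called. OS9, the lectin that delivers substrates to SEL1L, was at 292 to 322 CPM (median 317) untreated and 292 to 379 CPM (median 342) with insulin in normal medium, and at 298 to 360.4 (median 339.6) and 290.2 to 357 CPM (median 337) in insulin-resistant medium. All 4 groups overlapped, and its log2 fold change of 0.10 (SE 0.05, adjusted p = 0.132) was not called. The 3 lowest stimulated libraries of normal medium were those low in COL1A1, and the other 6 were above all untreated ones, with a log2 fold change of 0.07 (SE 0.04, adjusted p = 0.192).

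The 3 genes of entry and exit had the lowest median of the 5 classes. SEC61A1, the channel of the translocon, was at 415 to 628 CPM (median 559) untreated and 544 to 789.8 CPM (median 676) with insulin in normal medium, and at 461 to 644 (median 543) and 499 to 686 CPM (median 629) in the other medium. SEC61B, a small channel subunit, was at 48.6 to 85.6 (median 73.6), 60.1 to 94.3 (median 67.4), 61.1 to 87.1 (median 67.3) and 70.6 to 97.4 CPM (median 84.6) in the same order of groups. SEC24D, a cargo adaptor of the COPII coat, was at 105 to 234 (median 155), 125 to 236 (median 202), 105 to 243 (median 143) and 152 to 269 CPM (median 243). For each of the 3 all groups overlapped. SEC61A1 was called at 0.34 (SE 0.09, adjusted p = 0.00217), while SEC24D (0.20, SE 0.17, adjusted p = 0.417) and SEC61B (0.07, SE 0.10, adjusted p = 0.641) were not.

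SEC24D differed between triplets of the same group. In untreated cells of normal medium its triplet means were 159, 113 and 228 CPM for replicates 1 to 3, 4 to 6 and 7 to 9, with standard deviations of 6.41 to 13.0 (n = 3). With libraries also limited to an FN1 of at most 25000 CPM, its log2 fold change with insulin was 0.53 and called. In normal medium the FN1 limit removed untreated replicates 7 to 9 and no stimulated library.

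Of the sensors, ERN1 (IRE1) had the largest change. It was at 14.3 to 35.8 CPM (median 24.8) untreated and 43.3 to 109 CPM (median 58.6) with insulin in normal medium, and at 24.3 to 41.0 (median 31.0) and 20.1 to 30.5 CPM (median 29.0) in insulin-resistant medium. The first pair was separate and the log2 fold change was 1.53 (SE 0.18, adjusted p = 2.41e-08), or 1.16 (SE 0.17) without the 6 libraries.

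EIF2AK3 (PERK) was at 29.5 to 37.5 CPM (median 32.6) untreated and 45.6 to 84.8 CPM (median 59.2) with insulin in normal medium, and at 37 to 57.2 (median 41.7) and 32.2 to 45.0 CPM (median 43.1) in the other medium. ATF6 was at 47.7 to 65.7 CPM (median 59.6) untreated and 82.2 to 129.99 CPM (median 88.1) with insulin in normal medium, and at 48.9 to 62.7 (median 55.3) and 55.1 to 65.9 CPM (median 61.5) in the other. Both were separate between the normal-medium groups. EIF2AK3 rose by 0.90 (SE 0.10) and ATF6 by 0.71 (SE 0.07) on the log2 scale, and by 0.58 (SE 0.07) and 0.52 (SE 0.06) without the 6 libraries.

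XBP1 stood apart from the other 3. It was at 212 to 364 CPM (median 293) untreated and 293 to 412 CPM (median 312) with insulin in normal medium, and at 250.1 to 311 (median 301) and 201 to 317 CPM (median 305) in insulin-resistant medium. All groups overlapped, and 2 of 9 stimulated libraries, both low in COL1A1, were above the highest untreated one. The log2 fold change was 0.20 (SE 0.10, adjusted p = 0.117), and -0.03 (SE 0.10, adjusted p = 0.836) without the 6 libraries. A gene-level count does not separate the spliced from the unspliced form, so IRE1 activity was not measured. XBP1 was also the 1 member among the 9 with the first promoter element that was not called. The other 8 were higher, as were 23 of the 25 members with a promoter but without that element, and the medians of the 2 sets were 1.00 and 0.97 (0.69 and 0.64 without the 6 libraries).

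**Figure D3:**
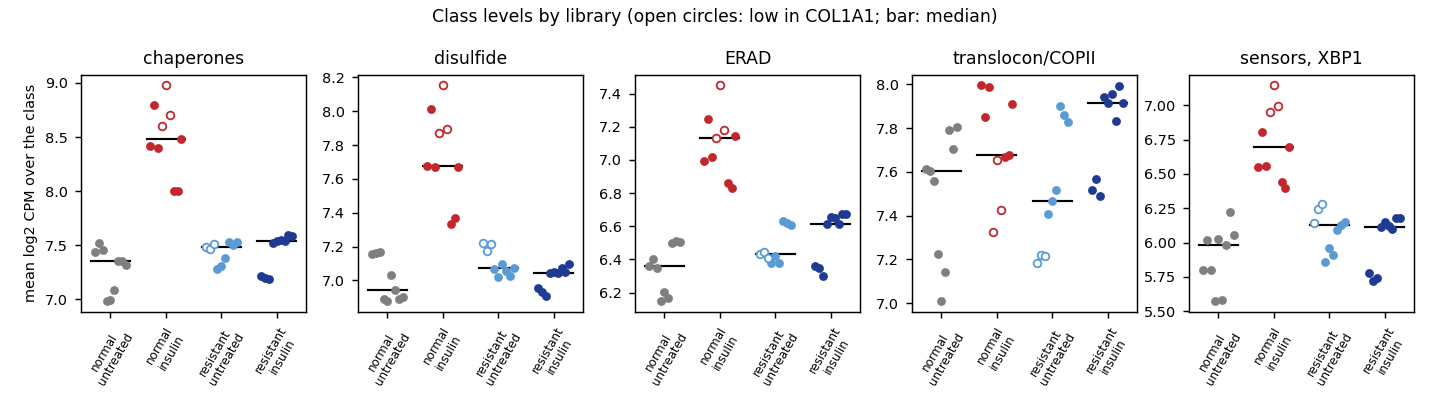
Mean log2 CPM over the members of a class in each library, for the 5 classes, with DERL3 left out; each panel has its own vertical scale, open circles are the 6 libraries low in COL1A1 and bars are medians. In chaperones, disulfide genes, degradation genes and sensors the insulin-stimulated libraries of normal medium lie above the rest, while in the translocon and COPII panel the groups overlap.

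As a class mean per library, the chaperones were at 6.99 to 7.52 log2 CPM (median 7.35) untreated and 8.0 to 8.98 (median 8.49) with insulin in normal medium. The means were 7.28 to 7.53 (median 7.48) and 7.19 to 7.59 (median 7.54) in insulin-resistant medium. The disulfide genes moved from a median of 6.95 to 7.67, the degradation genes from 6.36 to 7.13 and the sensors with XBP1 from 5.98 to 6.69 in normal medium, without overlap. The 3 translocon and COPII genes overlapped, at medians of 7.61 and 7.68. Without the 6 libraries the stimulated medians of normal medium were 8.41 for chaperones, 7.67 for disulfide genes, 7.01 for degradation genes and 6.55 for sensors with XBP1. The chaperone median in untreated cells of insulin-resistant medium was then 7.44. For the translocon and COPII genes the stimulated median of normal medium was 7.88 (7.67 to 8.0), which still overlapped the untreated libraries (7.01 to 7.80).

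For HSPA5 every stimulated triplet mean of normal medium lay above every untreated one. The means were 1245, 904 and 1324 CPM untreated and 4091, 5732 and 3231 CPM with insulin, where the 5732 comes from the replicates low in COL1A1. Triplets of the same number are not pairs. With each triplet summed to 1 sample, 3 against 3, 18 of 38 members were called higher (15 without the 6 libraries), against 1.76% of all genes (1.58%), HSPA5, SDF2L1, HYOU1, ERN1, ATF6 and EIF2AK3 among them. Within batches, 15 members were higher in that of 22 April (1.84% of all genes), 22 in that of 11 April (3.45%) and 32 in that of 24 May (17.4%). In that order the batches held 4 untreated and 5 stimulated libraries of normal medium, 2 and 2, and 3 and 2. The stimulated replicates 5, 6 and 4, all low in COL1A1, were in these batches in the same order. The summed stromal markers were at 22860 to 68251 CPM untreated and 100.4 to 52557 CPM with insulin, and the hepatocyte markers at 19712 to 33910.0 and 15040 to 41884 CPM. Beside this result, the 14 stromal markers had a median log2 fold change of -0.63 with 0 called and the 14 hepatocyte markers 0.06 with 1 higher and 1 lower. Without the 6 libraries these medians were -0.16 and -0.38, with 10 hepatocyte markers lower. The summed leukocyte markers, a sum carried by few of them, were at 674 to 1263 CPM untreated and 342 to 909 CPM with insulin. The part of these markers in the result was not tested.

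The calls of 5 small changes varied with the library left out. The reference library of the TMM scaling was replicate 5 of the insulin-stimulated cells in normal medium, one of the 6 low in COL1A1. With 1 of the 36 libraries left out in turn, 28 fits took another reference, and ERO1A, P4HB and PPIB lost their calls in exactly those 28, SEC61A1 in 22 of them and SIL1 in all 28 and 4 others. In those fits the median of all genes fell to as low as -0.10, and no other called member lost its call with any library left out. With DESeq2 size factors 3452 genes were higher and 2434 lower, against 4484 and 1843. With these factors, and with TMM factors averaged over all references, 31 members were higher, and SIL1 was the call that was lost.

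Insulin in insulin-resistant medium was not accompanied by a call in any member. With edgeR 0 of 37 members were higher and 0 lower, as were 0.0% of all genes in either direction, and without the 6 libraries these were also 0 of 38 and 0.0%. At an unadjusted p under 0.05, 0 members were higher and 4 lower (0 and 1 without the 6), and DESeq2 called 0. Over all genes, 4490 passed that unadjusted threshold (964 without the 6), and DESeq2 called 49 higher and 36 lower. The log2 fold changes lay between -0.31 and 0.25, with standard errors of 0.06 to 0.20 and a median of -0.05. SDF2L1 was at -0.21 (SE 0.16), HYOU1 at -0.26 (SE 0.18), HSPA5 at -0.08 (SE 0.18) and ERN1 at -0.31 (SE 0.19), the lowest.

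The 2 groups were separate in 1 member, CRELD1, named after its values were seen, and in 0.217% of all genes (0.35% without the 6 libraries). It was at 23.1 to 27.9 CPM (median 23.8) untreated and 18.0 to 22.8 CPM (median 21.4) with insulin in this medium. The spread of the stimulated group came largely from 1 triplet. HSPA5 was at 845 CPM in replicates 1 to 3 and at 1379 and 1421 CPM in the other triplets, and ERN1 at 20.7 CPM against 29.1 and 29.7 CPM. The untreated libraries of replicates 1 to 3 are those low in COL1A1. The hepatocyte markers had a median log2 fold change of -0.50 and the stromal markers 0.48, with 0 called in either, and -0.04 and -0.38 without the 6 libraries. Their part was not tested. Fitted on the 2 groups of this medium alone, 9 of 37 members were lower, as were 16.3% of all genes.

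**Figure D4:**
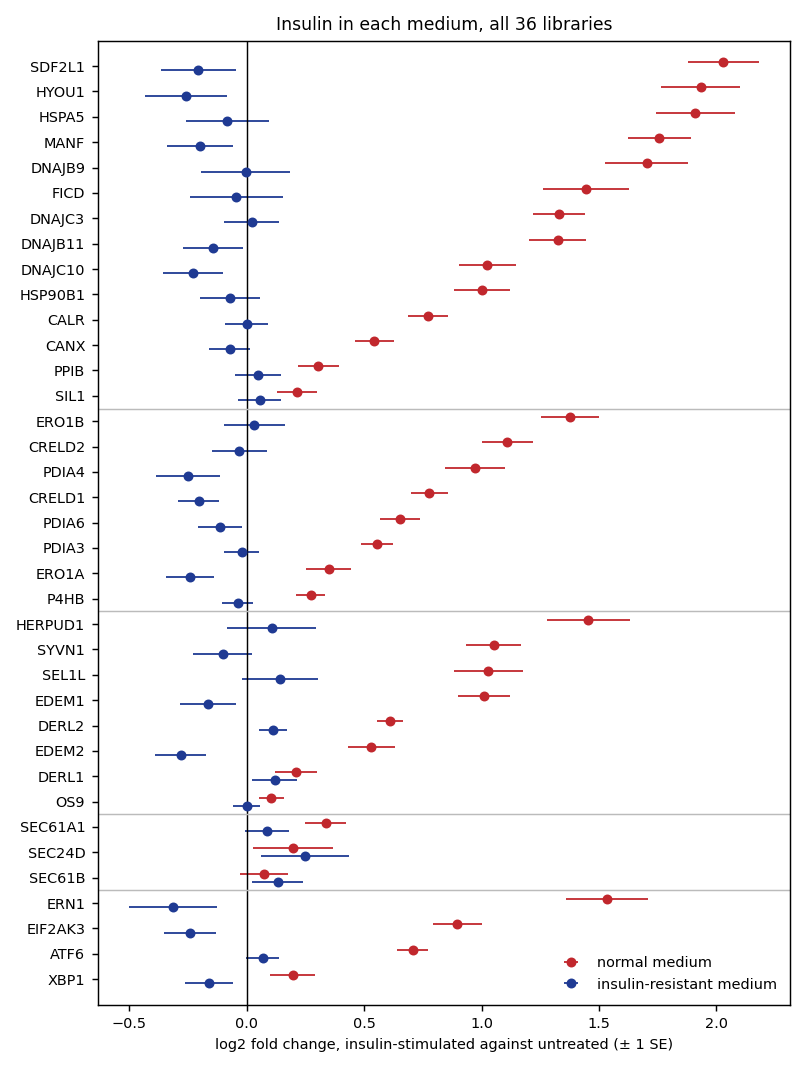
Log2 fold change with insulin of 37 members in normal medium (red) and in insulin-resistant medium (blue), with ± 1 standard error of the edgeR fit on all 36 libraries. The blue points lie between -0.31 and 0.25, while 32 of the red points were called higher.

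The difference between the 2 insulin responses was itself tested as an interaction term. It was negative, that is a smaller response in insulin-resistant medium, in 29 of 37 members and positive in 0, against 23.5% and 6.22% of all genes. Without the 6 libraries it was negative in 28 of 38, against 9.37%, and positive in 0, against 12.4%. By class it was called in 12 of 14 chaperones, 8 of 8 disulfide genes, 6 of 8 degradation genes, 0 of 3 translocon and COPII genes and 3 of 4 sensor genes. The largest differences were in SDF2L1 (-2.24, SE 0.22), HYOU1 (-2.19, SE 0.24), HSPA5 (-1.99, SE 0.24), MANF (-1.96, SE 0.19) and ERN1 (-1.85, SE 0.26). Without the 6 libraries these were -1.86 (SE 0.26), -1.63 (SE 0.22), -1.74 (SE 0.24), -1.51 (SE 0.19) and -1.36 (SE 0.25).

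XBP1 (-0.36, SE 0.14, adjusted p = 0.0536), SEC61A1 (-0.25, SE 0.13), SIL1 (-0.16, SE 0.12), SEC24D (0.05, SE 0.25) and SEC61B (0.06, SE 0.15) were not called. With FN1 limited to 25000 CPM the difference of SEC24D was negative and called (-0.799, adjusted p = 0.000542). Of insulin-resistant medium, that fit kept replicates 4 to 6 of the untreated group and 1 to 3 of the stimulated group, which is 1 triplet each. P4HB, at -0.31 (SE 0.09), lost its call in the 28 fits with another scaling reference. With triplets summed to 1 sample the difference was called in 0 of 38 members, with 25 negative at an unadjusted p under 0.05 and a lowest adjusted p of 0.0735, and likewise in 0 without the 6 libraries, with 21 negative. In those fits 0.0196% and 0.144% of all genes were called negative. At the unadjusted threshold, 2706 of 20446 genes passed in either direction, and 2161 of 20769 without the 6 libraries. In the batch of 22 April 0 members were negative, with 0.00544% of all genes, and in that of 11 April 16 were, with 2.97%. For this term the hepatocyte markers had a median of -0.55 with 6 negative, and 0.33 with 6 positive without the 6 libraries, and the stromal markers 1.10 and -0.16. Their part was not tested.

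Insulin-resistant medium in untreated cells was accompanied by small changes in a few members. With all libraries 6 of 37 were higher and 0 lower, against 13.3% and 8.62% of all genes, and without the 6 libraries 6 of 38 and 0, against 10.7% and 16.0%. The share of members called is thus close to that of all genes. Called in both fits were EDEM2, ERO1A, DNAJC10, EIF2AK3 and SIL1, of which SIL1 lost its call in 15 of 36 fits with 1 library left out. HSPA5, the central chaperone, was at a log2 fold change of 0.04 (SE 0.16) and HERPUD1 at -0.13 (SE 0.17), neither called.

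EDEM2, a mannosidase-like protein that marks glycoproteins for degradation, had the largest change. It was at 29.4 to 43.5 CPM (median 33.0) in untreated cells of normal medium and 48.5 to 82.7 CPM (median 63.4) in those of insulin-resistant medium, and at 35.9 to 65.5 (median 48.4) and 50.5 to 57.1 CPM (median 52.3) with insulin. The untreated groups did not overlap. The log2 fold change was 0.93 (SE 0.10, adjusted p = 1.27e-08), or 0.67 (SE 0.06, adjusted p = 3.75e-10) without the 6 libraries. Its call also held with triplets summed, where EDEM2 was the only member called and 1.89% of all genes were higher.

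ERO1A was at 83.0 to 98.5 CPM (median 92.2) in normal and 106 to 194 CPM (median 130.5) in insulin-resistant medium among untreated cells, again without overlap, and its log2 fold change was 0.65 (SE 0.10), or 0.41 (SE 0.07) without the 6 libraries. DNAJC10, a reductase with a J domain, was at 169 to 197 (median 181) and 223 to 362 CPM (median 260.0), also without overlap, and at 0.63 (SE 0.12) or 0.41 (SE 0.08). EIF2AK3 was at 0.43 (SE 0.10) or 0.25 (SE 0.08) and SIL1 at 0.25 (SE 0.08) or 0.32 (SE 0.07). The 3 highest libraries of this group in EDEM2 and ERO1A were those low in COL1A1. EDEM2, ERO1A and DNAJC10 are described by library because of these values. How many of all genes lack overlap between the untreated groups was not counted. The gaps of these genes and of HYOU1 therefore have no share beside them.

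**Figure D5:**
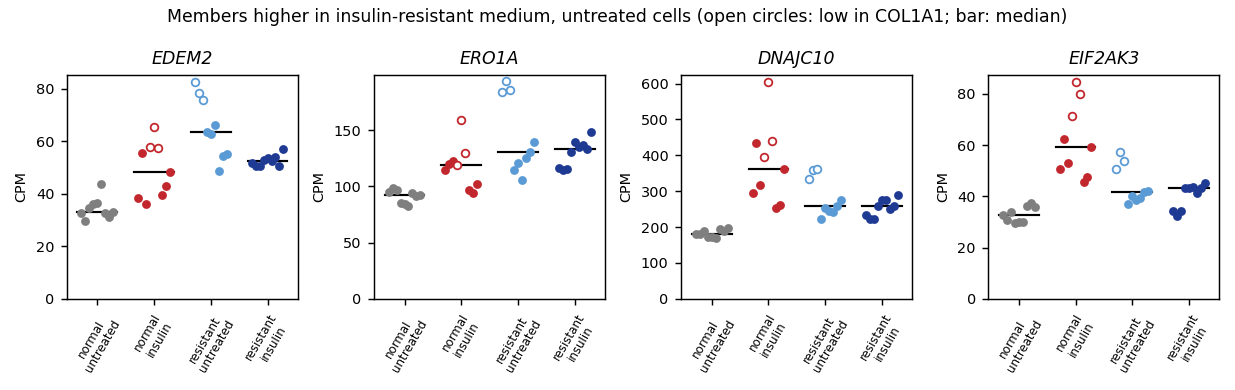
Level of EDEM2, ERO1A, DNAJC10 and EIF2AK3 in each library (scaled CPM from 0, groups on the horizontal axis); open circles are the 6 libraries low in COL1A1 and bars are medians. For EDEM2 the untreated libraries of insulin-resistant medium (median 63.4 CPM) lie above all untreated libraries of normal medium (median 33.0 CPM), also without the open circles.

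P4HB was called at 0.17 (SE 0.06, adjusted p = 0.0475) with all libraries alone, a call lost in 29 of 36 fits with 1 library left out, and OS9 at 0.13 (SE 0.04, adjusted p = 0.0184) without the 6 alone. Within the batches of 11 and 22 April 2 members each were higher, against 1.84% and 2.58% of all genes. In that of 24 May, where 948 of 19228 genes were higher, 32 members kept their status, 3 gained a call and 2 lost theirs. Here the stromal markers had a median of -0.20 with 0 called and the hepatocyte markers 0.04 with 1 higher and 2 lower, and 0.41 and -0.38 without the 6 libraries, with 8 hepatocyte markers lower. The summed cholangiocyte markers did not overlap, at 798 to 954 CPM in normal and 1168 to 1712 CPM in insulin-resistant medium. The summed leukocyte markers, a sum carried by few of them, were at 674 to 1263 and 869.8 to 2448 CPM. The part of these markers was not tested.

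Insulin-resistant medium in insulin-stimulated cells was accompanied by lower levels, in a comparison that shares its normal-medium libraries with the first one. With all libraries 28 of 37 members were lower and 0 higher, against 26.3% and 12.0% of all genes, with a median log2 fold change of -0.81 against -0.01. Without the 6 libraries 27 of 38 were lower and 2 higher, against 18.2% and 17.8%, with a median of -0.59. Called lower were 13 of 14 chaperones, 6 of 8 disulfide genes, 5 of 8 degradation genes, 0 of 3 translocon and COPII genes and 4 of 4 sensor genes. For 24 members every library in insulin-resistant medium was below every one in normal medium, with and without the 6 libraries, as was true of 10.2% and 11.0% of all genes.

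HSPA5 was lower by a log2 fold change of -1.96 (SE 0.18, adjusted p = 4.44e-10), SDF2L1 of -1.95 (SE 0.16), HYOU1 of -1.79 (SE 0.18), ERO1B of -1.59 (SE 0.13) and ERN1 of -1.52 (SE 0.19). XBP1 was called at -0.34 (SE 0.10, adjusted p = 0.00847) but not without the 6 libraries (-0.16, SE 0.11, adjusted p = 0.256). EDEM2 and ERO1A, at 0.12 (SE 0.11) and 0.06 (SE 0.10) with all libraries, were the 2 called higher without the 6, at 0.40 (SE 0.06) and 0.28 (SE 0.08). With triplets summed 17 members were lower (12 without the 6 libraries), against 3.01% of all genes (2.13%). PPIB (-0.30, SE 0.10) lost its call in 27 and XBP1 in 16 of 36 fits with 1 library left out. The hepatocyte markers were lower in 10 of 14 and higher in 1 with a median of -0.68, and the stromal markers had a median of 0.89 with 0 called. The summed leukocyte markers, a sum carried by few of them, did not overlap, at 342 to 909 CPM in normal and 987 to 1131 CPM in insulin-resistant medium. The part of these markers in the result was not tested. With libraries scaled to the hepatocyte markers, 17 members were lower and 2 higher, against 4.24% and 25.2% of all genes. The median of all genes moved by that scaling from -0.01 to 0.40.

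Among 83 other genes of the ER pathway, listed by function beside the members, insulin in normal medium was accompanied by 44 higher and 0 lower. Over all genes these shares were the 24.9% and 10.2% given above, and the median log2 fold change of the 83 was 0.21. Without the 6 libraries 28 were higher and 1 lower, against 15.4% and 18.1% of all genes, with a median of 0.11. Of 12 other regulators of the response 8 were higher. Among them were PPP1R15A, which reverses the PERK block on translation (1.47, SE 0.12), the pseudokinase TRIB3 (1.33, SE 0.14) and DDIT3, the factor CHOP (1.65, SE 0.19). Of 14 other folding factors 6 were higher, with ERP44, which retrieves unassembled proteins, at 0.64 (SE 0.06), the membrane thioredoxins TMX1 at 0.40 (SE 0.06) and TXNDC11 at 0.64 (SE 0.10).

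Glycan processing, which tags folding glycoproteins, had 9 of 13 genes higher, with UGGT1, the folding sensor, at 0.62 (SE 0.10), and the oligosaccharyltransferase subunits RPN1 at 0.41 (SE 0.06) and DDOST at 0.23 (SE 0.03). Of 16 other translocation and signal peptide genes 9 were higher, with SRPRB, a subunit of the signal recognition particle receptor, at 0.61 (SE 0.09), the signal peptidase subunit SPCS3 at 0.46 (SE 0.08) and SEC63, a partner of the channel, at 0.38 (SE 0.07). Of 14 other degradation genes 8 were higher, with SELENOK at 0.89 (SE 0.08), AUP1 at 0.50 (SE 0.07) and FAF2 at 0.37 (SE 0.03). Of 14 genes of ER to Golgi traffic 4 were higher, a share near that of all genes, with SEC23B, a partner of SEC24D in the COPII coat, at 1.17 (SE 0.14), and the cargo receptor pair MCFD2 at 0.51 (SE 0.07) and LMAN1 at 0.22 (SE 0.06).

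Of 14 cytosolic chaperones, which serve proteins outside the ER, 7 were higher and 3 lower, against 24.9% and 10.2% of all genes. Their median was 0.13. Without the 6 libraries 2 were higher and 3 lower, against 15.4% and 18.1%, with a median of 0.03. The chaperonin subunits CCT2 and TCP1 were at 0.52 (SE 0.07) and 0.34 (SE 0.06), and HSPA4, a relative of HSP70, at 0.26 (SE 0.03). In insulin-resistant medium 0 of the 83 ER genes and 0 of these 14 were called with insulin. In the interaction term 38 of the 83 were negative and 2 positive, against 23.5% and 6.22% of all genes. Without the 6 libraries these were 18 and 2, against 9.37% and 12.4%.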

How the data were processed

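The authors deposited expected counts per gene for 36 libraries, which need not be whole (15.5% of values are not) and were rounded here. Alignment with STAR, quantification with Salmon and the build GRCh37 are given, without versions, per the submitters' processing notes. Symbols were matched through Ensembl identifiers. Library totals ran from 26613307 to 116763907 counts.

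Groups were taken from the sample titles. All groups were fitted together with edgeR 4.0.16 (limma 3.58.1, R 4.3.3), with TMM scaling, a filter on low counts, group and the batch date of the labels as terms, and Benjamini-Hochberg adjustment over all genes tested. Calls are adjusted p under 0.05. CPM are TMM-scaled, and marker sums and IGF1R use the library total. Alternatives were the libraries used (COL1A1 under 10 CPM or FN1 over 25000 CPM left out), the scaling, the filter, DESeq2 1.42.0, the batch term, single batches, summed triplets, a replicate block and leaving out each library. The summed triplets without the low libraries were added after seeing the data. Scripts were tested on simulated data.

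Genes described by library are, in each class, the 3 members (2 of the disulfide class) with the largest absolute log2 fold change with insulin in normal medium and the 1 with the smallest, with all translocon and sensor genes. Of each other pathway list, up to 3 genes with the smallest adjusted p are named. The members and lists were chosen with earlier results of these data known.

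Replicate numbers did not pair libraries across groups and were not used as a block in the results.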

Additional observations from a re-analysis of the deposited data

Results flagged for a closer look

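In 4 of 72 groups of 9 libraries, 1 library lay farther from the rest than a 95% critical value for stray values allows, a number that chance gives at about 1 in 20 groups. P4HB was at 1414 CPM in replicate 5 of the untreated group of insulin-resistant medium, the lowest of its group. SEL1L was at 529 CPM and ATF6 at 129.99 CPM in replicate 5 of insulin-stimulated cells in normal medium, both the highest of their group and in a library low in COL1A1. OS9 was at 290.2 CPM in replicate 3 of insulin-stimulated cells in insulin-resistant medium, the lowest of its group.

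In 29 members the response to insulin differed between the media by the interaction term, and every difference was negative. Among chaperones the log2 differences were -2.24 for SDF2L1, -2.19 for HYOU1, -1.99 for HSPA5, -1.96 for MANF, -1.71 for DNAJB9, -1.49 for FICD, -1.47 for DNAJB11, -1.31 for DNAJC3, -1.25 for DNAJC10, -1.07 for HSP90B1, -0.77 for CALR and -0.62 for CANX. Among disulfide genes they were -1.34 for ERO1B, -1.22 for PDIA4, -1.14 for CRELD2, -0.98 for CRELD1, -0.77 for PDIA6, -0.59 for ERO1A, -0.58 for PDIA3 and -0.31 for P4HB. Among degradation genes they were -1.35 for HERPUD1, -1.18 for EDEM1, -1.15 for SYVN1, -0.89 for SEL1L, -0.81 for EDEM2 and -0.50 for DERL2. Among sensors they were -1.85 for ERN1, -1.14 for EIF2AK3 and -0.64 for ATF6. With triplets summed to 1 sample, 0 of these were called.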

How the results depend on the processing

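The count of members higher with insulin in normal medium was 32. It was 18 with triplets summed, 15 with triplets summed and the 6 libraries low in COL1A1 left out, 15 within the batch of 22 April, and 27 to 33 with each library left out in turn. In these last fits 2498 to 4549 of all genes were higher. With insulin in insulin-resistant medium, 2 members were lower with no batch term, 9 with only the groups compared in the fit, and 0 to 1 with each library left out. Of all genes, 1555 of 17983 were lower with no batch term and 2807 of 17187 with only the groups compared. With each library left out, 0 to 1834 were lower. For the medium in untreated cells, 6 members were higher. This count was 1 with triplets summed, 1 with triplets summed without the 6 libraries, 2 within the batch of 11 April, 2 within that of 22 April, and 4 to 7 with each library left out, and 1 member was lower with only the groups compared and 0 to 1 with each library left out. Of all genes, 373 of 20769 were higher with triplets summed without the 6 libraries, and 1610 of 17227 lower with only the groups compared. With each library left out, 1805 to 2581 were higher and 1219 to 1964 lower. For the medium in insulin-stimulated cells, 28 members were lower. This was 17 with hepatocyte scaling, 17 with triplets summed, 12 with triplets summed without the 6 libraries, 18 within the batch of 22 April, and 26 to 29 with each library left out. Of all genes, 629 of 18394 were lower within that batch and 3145 to 4848 with each library left out. Members higher in this comparison were 2 without the 6 libraries, 1 with FN1 also limited to 25000 CPM, 2 with hepatocyte scaling, and 0 to 1 with each library left out. Of all genes, 2132 of 18622 were higher with the FN1 limit and 2050 to 3477 with each library left out. The difference of the responses was negative in 29 members. This was 0 with triplets summed, 0 with triplets summed without the 6 libraries, 16 within the batch of 11 April, 0 within that of 22 April, and 28 to 30 with each library left out. In these last fits 2494 to 4440 of all genes were negative.

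Direction changed in 4 genes, counting only changes where the gene was called in either fit. Changes of sign between uncalled values, as in XBP1 with insulin in normal medium, were left out. SIL1 was at -0.043 with insulin in normal medium within the batch of 11 April. For the medium in insulin-stimulated cells, PPIB was at 0.10 and XBP1 at 0.11 with hepatocyte scaling, and SEC24D was at -0.48 with the FN1 limit. That limit also put the difference of responses of SEC24D at -0.799, and both values were past the threshold. Of insulin-stimulated cells in insulin-resistant medium, it kept replicates 1 to 3 alone. Summing triplets leaves fewer samples, and single batches fewer libraries. The fits on summed triplets also had no batch term. The cause of the changes was not tested. Hepatocyte scaling moved the median of all genes to 0.13 for insulin in normal medium, 0.37 for insulin in insulin-resistant medium, 0.13 and 0.40 for the medium without and with insulin, and 0.26 for the difference. With DESeq2 size factors 58.6% of all calls for insulin in normal medium were higher, against 70.9%.

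With the replicate block, 32 of 37 members were higher with insulin in normal medium, against 4454 of 17983 genes. For the medium in untreated cells 5 members were higher, against 2420 genes, a similar share. For the medium in insulin-stimulated cells 27 were lower, against 4906 genes. The difference of the responses was negative in 30 members, against 4487 genes. The replicate numbers share no more than a label. Same-numbered libraries of different groups had a median correlation of 0.06 (-0.82 to 0.74), and 2 of 36 libraries correlated best with their own number. The batch of 24 May holds no insulin-stimulated libraries of insulin-resistant medium, so 3 comparisons could not be made in it.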
